A study of Mus musculus with 6 samples.

Results

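Mouse embryos that lack Fezf1 and Fezf2 together were compared with wild type at embryonic day 9.5 (E9.5) on 2 arrays, 1 of Fezf1-/- Fezf2-/- (double knockout) and 1 of wild type, out of 6 arrays in all. The other 4 hold the same genotypes at E10.5 and E12.5. Tissue was the rostral forebrain, cut by hand so that nothing behind the lateral ventricles was taken, and biotin-labelled material made from its total RNA was measured on Affymetrix arrays. The labels give loss of both copies of both genes and name no Cre or other allele; the number of embryos behind an array, their sex and their strain are not stated in the labels used here. With 1 array a side, a difference at E9.5 has no replicate check and no test, and the values below describe these 2 arrays.

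Fezf1 and Fezf2 encode closely related zinc-finger transcription factors that act mainly as repressors and are transcribed in the anterior neural plate and the rostral forebrain. At E9.5 the mouse forebrain is a thin sheet of dividing neuroepithelial cells in which the first neurons are just appearing, and its dorsal, ventral, eye and hypothalamic fields are being set out. Hes5, a repressor that Notch signalling switches on in such progenitors, was reported in the study of these mice and is given first after the targeted genes.

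A gene is represented by its brightest probe set that names a single gene symbol, 18194 genes in all. Signal is the quantile-normalized array intensity, and a difference is knockout minus wild type on log2(signal + 6.50), which shrinks the differences of dim genes. At E9.5, 7487 genes had a signal over 100 on the brighter array, and 11097 lay above a filter on the mean over the 6 arrays. Over the 7487 genes the median difference was 0.01, and 51.8% of them were higher in the knockout. Where a gene had a second probe set over 100 (2599 genes), the median gap between the differences of the 2 probe sets was 0.13. Neither array stood apart: the 2% trimmed mean of the deposited values was 114 in the knockout and 108 in wild type, and the actin 3′ to 5′ ratio, which increases with RNA degradation, was 3.21 in the knockout and 3.12 in wild type. On the 4 later arrays that ratio ran from 1.44 to 1.84.

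The dissected tissue had the transcripts of rostral forebrain in both genotypes. Six3, a homeobox gene of the most anterior brain, had a signal of 165 in the knockout, against 189 in wild type. Otx2, which marks forebrain and midbrain, had 392 in the knockout, against 424 in wild type, and Emx2, a homeobox gene of the dorsal telencephalon, had 407 in the knockout, against 415 in wild type. Hox genes, which mark hindbrain and spinal cord, were dim: 1 of 24 measured lay above the filter, Hoxa5, with 88.6 in the knockout, against 47.6 in wild type.

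Both targeted genes were lower in the knockout. Fezf2 had a signal of 0.458 in the knockout, against 78.9 in wild type (log2 difference -3.62). The knockout signal is near 0, so the size of that difference is set by the pseudocount: it was -5.78 with a pseudocount of 1 and -1.77 with 32. Fezf1 had 97.7 in the knockout, against 251 in wild type (-1.30). Each has 1 probe set, and whether it lies in the deleted part is not stated in the labels used here, so what remains of the Fezf1 signal is no check of the label. In bulk tissue, here and below, fewer cells of a type and less RNA per cell cannot be told apart.

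Among the 7487 genes with a signal over 100, 15 were at least 2-fold higher in the knockout (0.2%) and 5 at least 2-fold lower (0.0668%). At 1.5-fold, 77 were higher (1.03%) and 56 lower (0.748%), 1.78% in either direction. With the values as deposited, whose median difference over these genes was 0.10, 154 were higher and 31 lower. Most of the differing genes were moderately bright: the median signal on their brighter array was 155 for those higher and 184 for those lower. The nearest genes on either side of the 1.5-fold limit were Agpat4 (396 against 262, just inside) and Znrd1as (121 against 78.8, just outside) among those higher, and Abcb8 (80.1 against 123, just inside) and Zfp503 (490.2 against 738, just outside) among those lower, knockout signals first in each pair. Of the 77 genes that were higher, 41 had another probe set above the median signal, and in 25 of them (61.0%) every such probe set was also higher. Of the 56 that were lower, 28 had another and 17 agreed (60.7%). Over all genes with a signal over 100, 4353 had another probe set above the median, and every such probe set went the same way as the brightest in 1845 (42.4%).

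**Figure D1:**
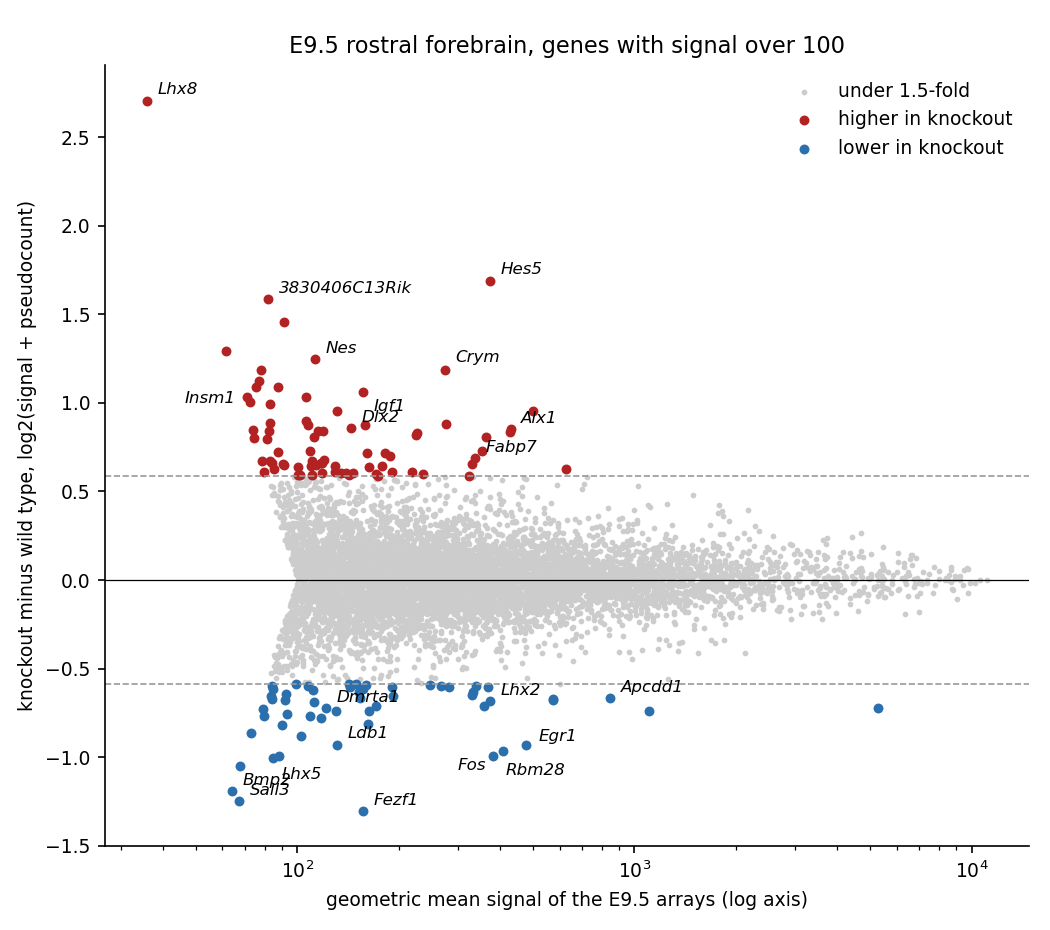
Difference between knockout and wild type at E9.5 (y axis, log2 units) against the geometric mean signal of the 2 arrays (x axis, log axis) for the 7487 genes with a signal over 100, with 77 genes at least 1.5-fold higher in red and 56 at least 1.5-fold lower in blue; dashed lines mark 1.5-fold. Lhx8 and Hes5 stand highest, Fezf1 lowest, and differences narrow as signal increases.

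Hes5 was among the genes at least 2-fold higher, with a signal well over 100 in both arrays. It had 679 in the knockout, against 206 in wild type, a difference of 1.69 and 3.23-fold on the pseudocount scale. A second Hes5 probe set had 99.2 in the knockout, against 49.0 in wild type (0.93). The brighter one belongs to a class of Affymetrix probe sets that can share probes with other transcripts, and the second does not belong to that class. At E10.5 the Hes5 signal was 848 in the knockout, against 371 in wild type, and at E12.5 it was 840.2 against 968. The knockout array thus had nearly its later level already at E9.5, while the wild-type arrays were higher at each later age.

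The promoter of Hes5 is shown because Notch acts through the DNA-binding protein RBPJ, whose core recognition letters are GTGGGAA, and that of Lhx8 is shown for comparison, as the gene with the largest increase. Each is 300 bases from RefSeq (GRCm38.p6), from 250 before to 50 after the start of the gene, read 5′ to 3′ on the gene's strand. Hes5 lies at chr4:154960673-154960972 on the plus strand and Lhx8 at chr3:154330511-154330810 on the minus strand. Capitals mark GTGGGAA on either strand, which on the opposite strand reads TTCCCAC.
Hes5: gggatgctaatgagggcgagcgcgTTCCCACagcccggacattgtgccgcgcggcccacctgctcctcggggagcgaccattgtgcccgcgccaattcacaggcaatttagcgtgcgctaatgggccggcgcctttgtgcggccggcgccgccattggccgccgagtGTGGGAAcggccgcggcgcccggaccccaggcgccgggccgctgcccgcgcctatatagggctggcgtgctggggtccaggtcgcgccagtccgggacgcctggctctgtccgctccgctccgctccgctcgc
Lhx8: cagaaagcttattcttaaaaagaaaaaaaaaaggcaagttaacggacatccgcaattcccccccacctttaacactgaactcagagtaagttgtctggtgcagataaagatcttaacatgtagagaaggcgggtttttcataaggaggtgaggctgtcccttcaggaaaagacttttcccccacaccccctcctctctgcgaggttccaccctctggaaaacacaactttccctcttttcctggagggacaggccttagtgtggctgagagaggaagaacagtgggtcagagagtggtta
The Hes5 window holds 2 matches, 1 on the opposite strand from 226 to 220 bases before the start and 1 on the gene's own strand from 83 to 77 bases before it. The Lhx8 window holds 0. Of 32851 mouse promoter windows of this length, 6.38% hold at least 1 match and 84 windows (0.256%) hold 2 or more. CACNAG, the letters bound by Hes repressors, was searched on both strands too and was found 0 times in the Hes5 window and 1 time in that of Lhx8, against 42.5% of all windows with at least 1; the 2 motifs do not overlap here. A match in this window is a description of its letters and does not show binding.

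Hes5 was not accompanied by a like difference across the Notch pathway. Of 26 pathway genes above the filter, 19 were higher and 7 lower in the knockout, with a median of 0.13, against a median of 0.01 and 52.8% higher over all genes above the filter. Hes5 was the only one at least 1.5-fold apart with a signal over 100. Among receptors, Notch1 had 225 in the knockout, against 177 in wild type (0.34), and Notch2 and Notch3 differed by 0.15 and 0.14. The ligand gene Dll1 had 133 in the knockout, against 133 in wild type, and Jag1 had 468 in the knockout, against 469 in wild type. Receptors and ligands at these levels thus differed little between the arrays. Among Notch targets, Hes1 had 94.8 in the knockout, against 107 in wild type (-0.16), Hey1 had 177 in the knockout, against 195 in wild type (-0.13), and the feedback regulator gene Nrarp had 403 in the knockout, against 338 in wild type (0.25). Dlk1, a non-canonical Notch ligand gene, had 1143 in the knockout, against 869 in wild type (0.39). Hes6, a neurogenic relative of Hes5, had 126 in the knockout, against 91.8 in wild type (0.43). A dim second Hes6 probe set was near equal, at 43.9 in the knockout, against 43.0 in wild type (0.03).

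The highest median of the lists with more than 1 member above the filter was that of the ventral telencephalon, the region that forms the basal ganglia and produces GABAergic and cholinergic neurons. Of its 15 members above the filter, 11 were higher and 4 lower, with a median of 0.60. Only 6 of the 15 had a signal over 100 at E9.5, so most of the list was dim. Lhx8, a LIM-homeobox gene needed for cholinergic neurons of the basal forebrain, showed the largest difference of any gene with a signal over 100: 111 in the knockout, against 11.5 in wild type (2.71). Its wild-type signal lay below the median of all values (24.0), so its fold depends on the pseudocount. Dlx2, a homeobox gene of ventral progenitors and of GABAergic neurons, had 197 in the knockout, against 106 in wild type (0.86). Its neighbour Dlx1, with related functions, was dim, with 47.9 in the knockout, against 10.3 in wild type (1.69). All 3 had 1 probe set, and at E10.5 none of the 3 was higher by more than 0.02, with differences of 0.02 for Lhx8, -0.04 for Dlx2 and -0.25 for Dlx1. At that age the wild-type array had reached a Lhx8 signal of 126 and a Dlx1 signal of 124. At E12.5 Lhx8 was higher in the knockout again, at 535, against 346 in wild type (0.62), and Dlx1 differed by 0.04. The list median was -0.25 at E10.5, with 4 members higher and 11 lower, and 0.17 at E12.5, with 12 higher and 3 lower.

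Other ventral genes gave smaller or dimmer differences. Isl1, a LIM-homeobox gene of striatal and cholinergic precursors, had 151 in the knockout, against 83.5 in wild type (0.81), but its other probe sets did not all go the same way. Rarb, a retinoic acid receptor gene of the striatum, had 174 in the knockout, against 112 in wild type (0.60). With Lhx8 and Dlx2 these were the 4 members at least 1.5-fold apart with a signal over 100. Gad2, which encodes a GABA-synthesising enzyme, and Olig1, an oligodendrocyte-lineage factor gene, stayed under 100. Gad2 had 38.4 in the knockout, against 17.1 in wild type, and Olig1 had 39.5 in the knockout, against 18.0 in wild type. On the other side, Dlx5, Gsx2 and Gad1 were near equal, at -0.05, -0.02 and 0.02, so the list was not uniformly higher. Without Lhx8 its median was 0.50. Lhx8, Dlx1, Dlx2 and Isl1 are also transcribed in the mesenchyme of the embryonic face, where 27 of 28 marker genes were higher in the knockout as well (median 0.35); the part of that tissue in these values was not tested.

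The hypothalamus and eye field list leaned the same way, with 11 of 12 members above the filter higher and a median of 0.18. Tbx2, a T-box repressor gene of ventral hypothalamus and dorsal retina, had 147 in the knockout, against 76.3 in wild type (0.90). Vax1, a homeobox gene of the optic stalk and ventral forebrain, had 149.99 in the knockout, against 92.6 in wild type (0.66). Otp, needed for neuroendocrine neurons, was dim at 55.6 in the knockout, against 23.4 in wild type (1.05), as was Dct, a pigment-synthesis gene of the eye and also of melanoblasts, at 46.0 in the knockout, against 9.43 in wild type (1.72). The eye genes Six6, Mitf and Six3 differed by 0.17, 0.08 and -0.19, so none of them was among the larger differences. Of 23 measured members, 11 lay below the filter and were not read.

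**Figure D2:**
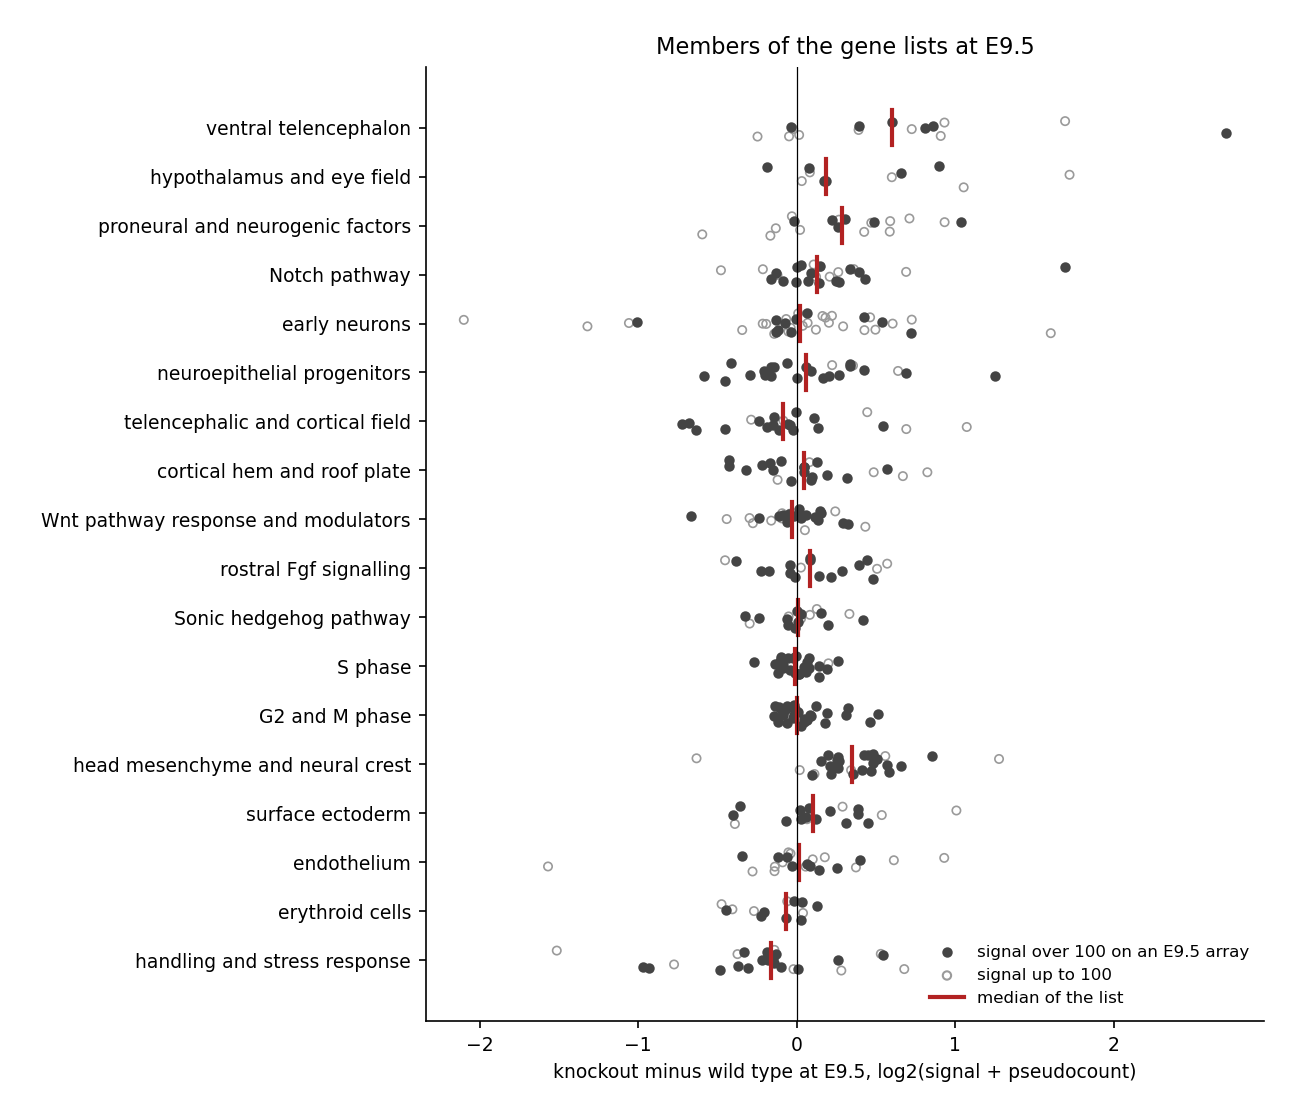
Knockout minus wild type at E9.5 (x axis, log2 units) for each member above the filter of 18 gene lists (rows); filled points have a signal over 100 on an E9.5 array, open points do not, and red bars are list medians. The ventral telencephalon (0.60) and head mesenchyme (0.35) medians lie farthest right, the handling and stress median (-0.17) farthest left.

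Genes that start neurogenesis were more often higher in the knockout at this age. Of 18 proneural and neurogenic factors above the filter, 13 were higher and 5 lower, with a median of 0.28. Over all genes above the filter, 52.8% were higher. Only 6 of the 18 had a signal over 100 at this age, so most of the list was dim. Insm1, a zinc-finger gene of newly formed basal progenitors and neurons, had 105 in the knockout, against 48.0 in wild type (1.04), and its second probe set had 31.1 against 9.34 in the same order (1.25). Cdkn1c, which encodes a cell-cycle inhibitor, had 472 in the knockout, against 335 in wild type (0.49). Neurod1 and Nhlh1, basic helix-loop-helix genes of young neurons, were dim and both differed by 0.59. Neurog2, the main proneural gene of the cortex, was not higher, at 30.7 in the knockout, against 35.3 in wild type (-0.17), while Neurog1 differed by 0.27. A second, dim Neurog1 probe set had 28.8 in the knockout, against 2.98 in wild type (1.90). At E10.5 the same 18 genes had a median of -0.55, with 14 lower.

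Transcripts of neurons themselves showed no shared direction. Of 36 early neuron genes above the filter, 19 were higher and 17 lower, with a median of 0.02. Tubb3, a neuronal tubulin gene, had 81.1 in the knockout, against 80.6 in wild type, and Elavl2, a neuronal RNA-binding protein gene, had 385 in the knockout, against 395 in wild type. Stmn3, a microtubule regulator gene, had 115 in the knockout, against 67.0 in wild type (0.72), whereas Lhx5, a LIM-homeobox gene of Cajal-Retzius and hypothalamic neurons, was lower, at 58.1 in the knockout, against 123 in wild type (-1.01). Those 2 were the members past 1.5-fold with a signal over 100. Lhx1, its close relative, and Calb2, which encodes calretinin, were dim and also lower, at 1.49 against 10.1 and 3.84 against 37.8, knockout first. Only 11 of the 36 had a signal over 100 at E9.5, so most of the list was read near the background.

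Progenitor genes were bright and mostly close between the arrays. Of 25 members above the filter, 14 were higher and 11 lower, with a median of 0.06. Sox2, a factor gene of neural progenitors, had 1610.3 in the knockout, against 1849.8 in wild type (-0.20), and Vim, which encodes the filament protein vimentin, had 3113 in the knockout, against 2702 in wild type (0.20). Fabp7, a fatty-acid-binding protein gene of radial glia, was higher, at 429.6 in the knockout, against 264 in wild type (0.69). Nes, which encodes the progenitor filament protein nestin, had 178 in the knockout, against 71.3 in wild type (1.25), but its second probe set had 42.5 against 47.8 in the same order (-0.15). Lin28a, an RNA-binding protein gene of very early progenitors, had 1342 in the knockout, against 1788 in wild type (-0.41); its 2 probe sets agreed. Zfp503, a transcriptional repressor gene, had 490.2 in the knockout, against 738 in wild type (-0.58), with a second probe set at 0.06.

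The telencephalic and cortical field leaned slightly towards lower values, with 15 of 21 members lower and 6 higher. Over all genes above the filter, 52.8% were higher. The list median was small, at -0.08, and was -0.02 with the values as deposited. By their brightest probe sets, the members at least 1.5-fold lower with a signal over 100 were 3 factor genes of the dorsal telencephalon. Tcf7l1 was not among them by its brightest probe set. Another Tcf7l1 probe set was lower, at 289 in the knockout, against 600 in wild type (-1.04). Dmrta1, a doublesex-related factor gene, had 93.2 in the knockout, against 158 in wild type (-0.72). Lhx2, a LIM-homeobox gene that specifies cortex against hem, had 293 in the knockout, against 475 in wild type (-0.68). Dmrt3 had 121 in the knockout, against 192 in wild type (-0.63), with a second probe set that did not agree. Pax6, which keeps dorsal identity, had 344 in the knockout, against 473 in wild type (-0.45). Emx2, Nr2f1, Sp8 and Otx1 differed by -0.05 to -0.01, which is less than the median gap of 0.13 between probe sets of a gene. Meis2, a homeobox gene with strong ventral expression, was higher, at 860.2 in the knockout, against 588 in wild type (0.54), its 3 other probe sets giving 0.07 to 0.65. Bcl11a, a zinc-finger gene of later cortical neurons, was dim and higher, at 59.4 in the knockout, against 24.8 in wild type (1.07).

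Dorsal midline and Wnt genes showed few differences. Genes of the cortical hem and roof plate had 13 of 22 members higher, a median of 0.05 and no member past 1.5-fold with a signal over 100. Within that list, Wnt8b and Rspo3, a Wnt and a Wnt enhancer gene of the dorsomedial telencephalon, had 99.4 against 136 and 227 against 285, knockout first, while Msx1, a homeobox gene of the midline and of mesenchyme, had 319.6 against 213. Among 26 Wnt pathway genes the median was -0.03, and -0.20 with the mean of each gene's probe sets. Apcdd1, a Wnt target gene that encodes an inhibitor of the pathway, had 673 in the knockout, against 1071 in wild type (-0.67) in its brightest probe set, but its 4 other probe sets gave smaller differences, from -0.22 to -0.06. Axin2, a general Wnt target gene, had 205 in the knockout, against 162 in wild type (0.32). Bmp2, a signalling protein gene in no list, had 40.6 in the knockout, against 101 in wild type (-1.19). Sall3 and Ldb1, a zinc-finger gene and a cofactor gene of LIM-homeobox proteins, were also lower, at 41.9 against 108 and 93.8 against 184. A second Sall3 probe set was dim and near equal, at 29.6 in the knockout, against 30.3 in wild type (-0.03), and the mean of both gave -0.64.

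Other signalling pathways had medians near that of all genes. Rostral Fgf genes had a median of 0.08, with 11 of 18 higher and none past 1.5-fold with a signal over 100. Fgf15, a growth factor gene of the forebrain, had 221 in the knockout, against 157 in wild type (0.48), and Spry2, a feedback inhibitor gene of Fgf signalling, had 349 in the knockout, against 408 in wild type (-0.22). In the Sonic hedgehog pathway, which patterns the ventral forebrain, the median was 0.01 over 17 genes. Shh itself had 429.7 in the knockout, against 320.5 in wild type (0.42), but Ptch1, its receptor and target gene, had 1599 in the knockout, against 1571 in wild type (0.03), and Gli1, a further target gene, was under 100 at 89.8 in the knockout, against 69.96 in wild type (0.33). Retinoid pathway genes had a median of 0.01 over 12 members and axon guidance and cell contact genes one of 0.00 over 36, with 18 in each direction.

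Division genes were close between the arrays. The 26 S phase genes had a median of -0.01, with 12 higher and 14 lower, and ranged from -0.27 (Gins2) to 0.26 (Rrm1). Pcna, a replication clamp gene, had 4752 in the knockout, against 4548 in wild type. The 28 G2 and M phase genes were evenly split, 14 in each direction, with a range from -0.14 (Cdc20) to 0.51 (Birc5). Mki67, the common proliferation marker, had 1876 in the knockout, against 1644 in wild type (0.19). No member of either list reached 1.5-fold.

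Diencephalon and midbrain genes differed little at this age. Of 14 genes of diencephalon and midbrain above the filter, 10 were higher, with a median of 0.20 (0.02 with the mean of each gene's probe sets) and none past 1.5-fold with a signal over 100. Irx3, a homeobox gene of the thalamus and midbrain, had 741 in the knockout, against 619 in wild type (0.26), and Pax7, which marks the roof of the midbrain, had 165 in the knockout, against 133 in wild type (0.30), with a dim second probe set at -0.07. The same list had a median of 0.26 at E10.5 and 1.31 at E12.5, so it was nearest to equal on the E9.5 arrays.

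Of the tissues around the brain, head mesenchyme and neural crest stood apart. Of 37 genes listed, 35 were measured and 28 lay above the filter and 7 below it; 27 of the 28 were higher in the knockout, 1 lower, and the median was 0.35. All 22 with a signal over 100 were higher. Summed over the measured members, signal was 11801 in the knockout and 8920.4 in wild type. Alx1, a homeobox gene of the mesenchyme of the face, had 579 in the knockout, against 318 in wild type (0.85), Snai2, a zinc-finger gene of migrating crest, had 415 in the knockout, against 261 in wild type (0.66), and the fibrillar collagen gene Col3a1 had 1768 in the knockout, against 1264 in wild type (0.48). Pdgfra, a growth factor receptor gene of mesenchyme, had 417 in the knockout, against 292 in wild type (0.50), with probe sets that disagreed, and Twist1, a mesenchymal basic helix-loop-helix gene, had 488 in the knockout, against 406 in wild type (0.26). The exception, Sox10, a gene of glial and early crest, was dim, at 24.4 in the knockout, against 41.4 in wild type (-0.63). These markers had signal in both arrays, and none of the 28 was at 0.

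**Figure D3:**
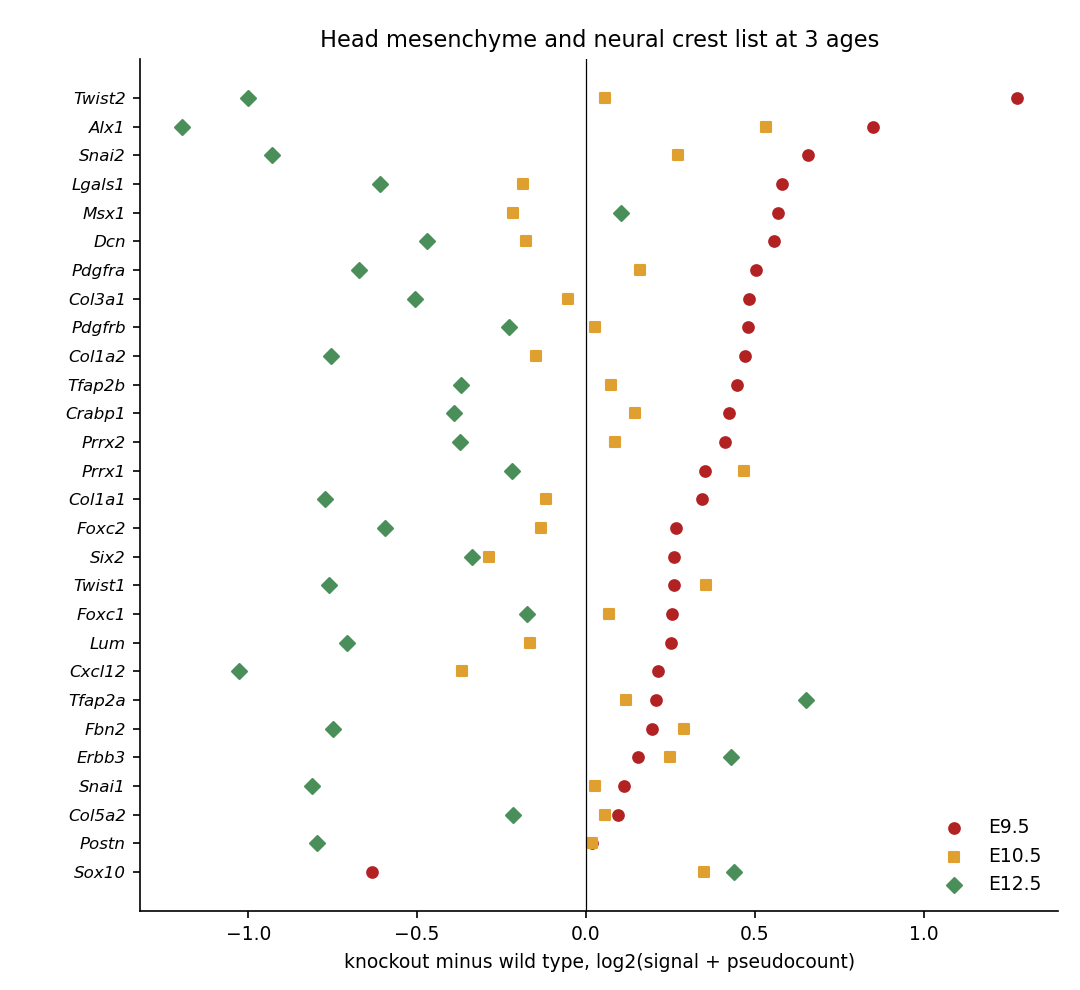
Knockout minus wild type (x axis, log2 units) at E9.5 (red circles), E10.5 (orange squares) and E12.5 (green diamonds) for the 28 head mesenchyme and neural crest genes above the filter, ordered by the E9.5 value. At E9.5, 27 lie right of 0; at E10.5, 18 do; at E12.5, 4 do.

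The mesenchyme list did not keep this direction later, with medians of 0.06 at E10.5 and -0.55 at E12.5. Igf1, a growth factor gene that mesenchyme also transcribes, had 230.3 in the knockout, against 107 in wild type (1.06), and its 3 other probe sets above the median were all higher too. Vessel, blood and skin markers had medians closer to 0. Endothelial genes had a median of 0.01, with 11 of 22 in each direction. Erythroid genes had -0.07, with 9 of 13 lower, and the embryonic globin gene Hbb-bh1 had 8639 in the knockout, against 8469 in wild type. Surface ectoderm genes had 0.10, with 14 of 18 higher; Cdh1, the epithelial cadherin gene, had 493 in the knockout, against 376 in wild type (0.38). Placode genes had 0.26 over 11 members and lens and optic vesicle genes 0.19 over 8, lists that share Ebf1, Six3 and others with those above. Macrophage genes were all under 100 in both arrays.

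Immediate-early and stress genes were lower in the knockout array, with 20 of 26 lower, 6 higher and a median of -0.17. Fos and Egr1 are induced within minutes of a disturbance. Fos had 289.9 in the knockout, against 573 in wild type (-0.97), and Egr1 had 344 in the knockout, against 663 in wild type (-0.93). Jun and Ier2, of the same class, differed by -0.33 and -0.37, but a second Jun probe set differed by 0.10. Xist, the RNA that silences 1 X chromosome in females, had 453 in the knockout, against 725 in wild type (-0.67), while the Y-linked genes Eif2s3y, Kdm5d and Uty had 194 against 168, 124 against 138 and 96.3 against 89.8, knockout first. Both arrays therefore carried signal of Xist and of Y-linked genes, and the Xist signal differed between them. How far the mesenchyme, handling and sex-linked differences bear on the other values at E9.5 was not tested.

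The remaining large differences were of genes in no list. Crym, which encodes a thyroid hormone-binding crystallin, had 417 in the knockout, against 179.5 in wild type (1.19). Dchs1, a large cadherin gene of tissue polarity, had 118 in the knockout, against 50.5 in wild type (1.12), Synpo, an actin-associated protein gene, 114 in the knockout, against 50.05 in wild type (1.09), and Kif21b, a kinesin gene, 120.5 in the knockout, against 57.3 in wild type (0.99). None of the 4 has a second probe set above the median signal to set beside it. Zdhhc12, Msl3l2, Fbxw22 and Ces5a were also higher, by 1.04, 1.01, 1.19 and 1.46. Among genes that were lower, Tango6, Mb21d2, Tbc1d25 and the long non-coding RNA Rmst differed by -1.05, -0.88, -0.86 and -0.82.

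Some differences rested on 1 probe set against another of the same gene. Mpped2, Nt5dc3 and Oxsm were higher by 1.30, 1.09 and 0.89 in the brightest probe set, but the next gave -0.12, -0.11 and -0.34. Plekha2, Rbm28, Farsa and Mier2 differed by -0.99, -0.99, -0.74 and -0.71, but some other probe set of each was higher. For Farsa the disagreement was large, with a second probe set at 61.4 in the knockout, against 30.6 in wild type (0.87).

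Many large differences lay in dim genes, where a signal is close to the background and its order is uncertain. Utf1, Ly6m, Rd3, Cd209f, Uroc1 and Cfap61 were higher by 2.10 to 2.27, with knockout signals from 30.1 to 48.8 and wild-type signals from 1.87 to 4.97. Aire, Cysrt1, Ltbp4, Cbr3 and Ddn were lower, from -2.46 to -2.12, with knockout signals from 1.44 to 11.6 and wild-type signals from 28.1 to 82.2. None of these has another probe set above the median, and no weight was put on them. Without the minimum signal, 560 genes would be at least 2-fold higher and 487 lower.

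Near the targeted genes a few measured genes differed as well. The clone-named gene 3830406C13Rik, named after its values were seen, is the next gene above the filter beside Fezf2 in the gene order of GRCm38.p6 and had 149 in the knockout, against 45.2 in wild type (1.59), with a second probe set at 0.70. Oxsm and Rarb lie 6 and 9 genes from Fezf2. Ptprz1, a receptor phosphatase gene of progenitors, lies 2 genes from Fezf1 and had 121 in the knockout, against 218 in wild type (-0.81), its other probe sets also lower, and Rbm28 lies 11 from it. Of the genes within 60 positions, 78 around Fezf1 and 49 around Fezf2 had a signal over 100, and 2 and 4 of them, counted from the names above and Zcchc24 (48 genes from Fezf2), passed 1.5-fold, against 1.78% of all genes with such a signal.

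Genes that differed at E9.5 were then followed in the 4 later arrays, whose differences took no part in choosing them. All 6 arrays did set the scale and the probe set of each gene. With the E9.5 pair normalized alone, 63 of the 77 higher and 46 of the 56 lower genes passed again. Of the 77 genes higher at E9.5, 38 (49.4%) were higher at E10.5 and 42 (54.5%) at E12.5, against 50.2% and 54.0% of all genes with a signal over 100 at E9.5. Of the 56 lower, 20 (35.7%) were higher at E10.5 and 25 (44.6%) at E12.5. Without Fezf1 those 2 shares were 36.4% and 45.5%. The genes higher at E9.5 thus had later directions like those of genes in general, while those lower at E9.5 were more often lower later, a difference in shares that was not tested. At 1.5-fold and over, 8 of the 77 were higher and 6 lower at E10.5, and 3 higher and 0 lower at E12.5. Of the 56, 0 were higher and 9 lower at E10.5, and 2 higher and 5 lower at E12.5. Fezf1 is among the lower ones at both ages. Over all 7487 genes with a signal over 100 at E9.5, 65 were higher and 85 lower at E10.5, and 56 and 49 at E12.5. At E10.5, 0.909% of 7481 genes were higher by this measure and 1.79% lower, 2.7% in all.

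The E10.5 and E12.5 pairs allow a test of genotype in those 4 arrays (limma, age as a block, Benjamini-Hochberg over 11097 genes). Its only residual is how the difference varied between those ages, 1 degree of freedom that moderation over genes raised to 44.7, so p-values lean on the spread of other genes. It called 27 genes higher (0.243%) and 36 lower (0.324%), 0.568% in either direction, but 0 higher and 1 lower without a trend in the variance, with the arrays scaled to a common trimmed mean or without the filter on dim genes. Of the 77 genes higher at E9.5, 2 were called higher (3830406C13Rik and the chloride channel gene Ano1) and 1 lower (Ces5a). Of the 56 lower at E9.5, 6 were called lower: Fezf1, Lhx2, Apcdd1, Ptprz1, Rbm28 and Xist. Of all 7487 genes with a signal over 100 at E9.5, 24 were called higher and 26 lower. Lhx2 and Apcdd1, each in its brightest probe set, were thus called in arrays whose differences took no part in the choice, under the stated settings. Dmrta1 was lower at both later ages too, but was not called (limma adjusted p = 0.0896). Lhx2 had 364 in the knockout, against 766 in wild type at E10.5 and 1074 against 1217 at E12.5. The call of Xist rests on E10.5, where it differed by -4.99; at E12.5 it differed by 0.56.

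The same fit tested the E9.5 difference minus the mean of the later ones, which does not compare E9.5 with each later age. The test assumes that the E9.5 pair varies like the later pairs. In all, 39 genes passed as higher (0.351%) and 5 as lower (0.0451%), 0.397% of 11097, with 15 of the 77 genes higher at E9.5 among them and 1 of the 56 lower. The E9.5 values that chose those sets enter this contrast, so the 2 counts are descriptions only. Over all genes, 703 had an unadjusted p under 0.05. Without a trend in the variance, with the arrays scaled to a common trimmed mean or without the filter on dim genes, 0 passed, so these calls hold for the stated settings only. For Lhx8 the E9.5 difference exceeded the mean of the later ones by 2.39 ± 0.31 (limma SE) and for Dlx1 by 1.80 ± 0.29. For Insm1 it did so by 1.54 ± 0.27 and for Hes5 by 1.20 ± 0.26. Each passed, but its single E9.5 difference enters the contrast, so these values are descriptions too. For Hes5 the later differences were 1.18 at E10.5 and -0.20 at E12.5, so its increase was not particular to E9.5. Fabp7, Nes and Igf1 passed too, by 0.94 ± 0.18, 1.32 ± 0.26 and 1.31 ± 0.29, as did the mesenchyme genes Col1a2, Col3a1 and Lgals1. For Sall3 the contrast was -2.15 ± 0.40, below the later differences, in its brightest probe set. The second Sall3 probe set, near equal at E9.5, did not enter the test. Lin28a and Dbx1 passed in the same direction and were higher in the knockout later and near equal or lower at E9.5.

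**Figure D4:**
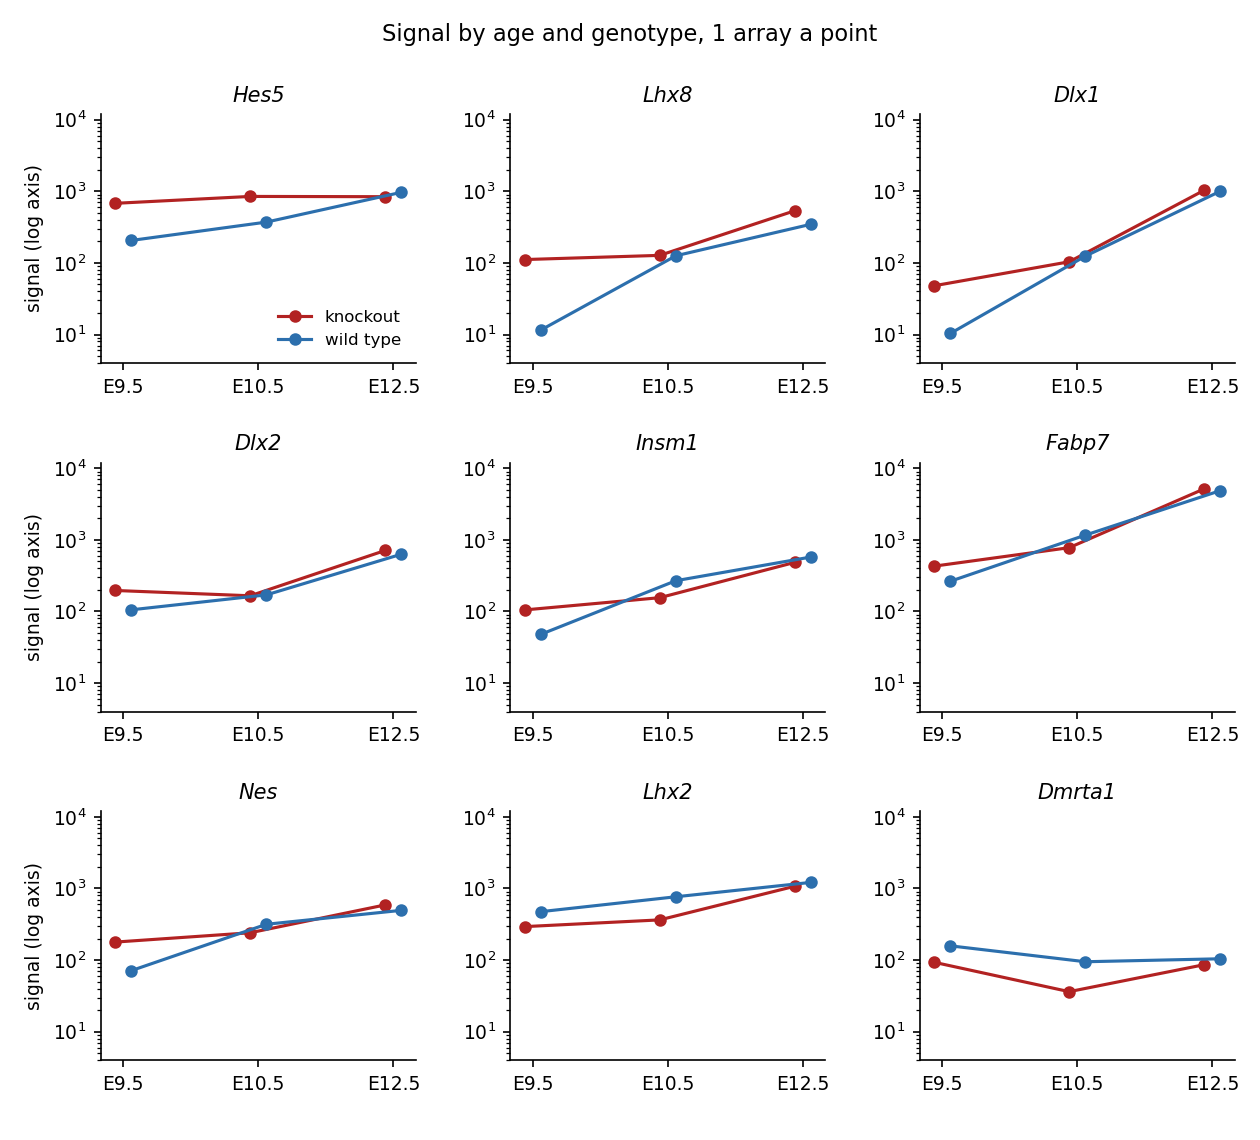
Signal (y axis, log axis) by age for 9 genes, knockout in red and wild type in blue, 1 array a point. For Hes5, Lhx8, Dlx1, Dlx2, Insm1, Fabp7 and Nes the knockout is above wild type at E9.5, and for Lhx2 and Dmrta1 it is below at all 3 ages.

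The plot of signal by age shows different courses. Insm1 and Fabp7 were above wild type at E9.5 and below it at E10.5, with Insm1 at 156 in the knockout, against 269 in wild type, and Fabp7 at 779 against 1166. Lhx2 and Dmrta1 were below wild type at every age, Dmrta1 with 36.2 in the knockout, against 94.8 in wild type at E10.5.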

How the data were processed

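Gene expression was measured on 6 Affymetrix arrays, 1 per genotype and age, and the comparison here uses the E9.5 pair, with the later pairs for scaling and follow-up. The authors deposited linear intensity values per probe set, and the submitters' processing notes name MAS5 as the tool, which subtracts background and can leave dim values in no reliable order. Arrays were quantile-normalized together (limma 3.58.1, R 4.3.3), since the authors' deposited intensity values had no common level, and log2(signal + 6.50) was taken, the pseudocount being the lower quartile of the deposited values. Of 45101 probe sets, 34958 name 1 gene symbol, 932 several and 9211 none that is listed; 34754 matched RefSeq (GRCm38.p6), with 0 symbols changed. A gene takes its brightest probe set by mean log2 over 6 arrays. Genes above the median of all probe sets (11097) entered limma's fit (lmFit, eBayes with a trend). The fit was also run on simulated data in which all arrays of a gene had the same spread. That run cannot check whether the E9.5 pair varies like the later pairs. Precision is limited by 1 array per group. P-values rest on how the genotype difference varied between E10.5 and E12.5, moderated over genes, and on no replicate arrays.

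Members and gene lists were chosen with earlier results of these data known, so their directions are not independent evidence. Named genes are Fezf1, Fezf2 and Hes5; up to 12 of the largest differences in each direction among usual symbols with a signal over 100, at least 1.5-fold and probe sets that agree; up to 4 that disagree; up to 6 dim ones; up to 8 that passed for E9.5 against later ages; and list members. Alternatives were the values as deposited, a common trimmed mean, normalizing the E9.5 pair alone, other pseudocounts and minimum signals, the mean of a gene's probe sets, no variance trend and no filter. The Fezf proteins were not analysed here.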

Additional observations from a re-analysis of the deposited data

Results flagged for a closer look

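The genes below were set apart because their knockout minus wild-type difference at E9.5 departed from the mean difference at E10.5 and E12.5 in limma's test of that contrast. Values in brackets are the E9.5 difference minus the later one, on the log2 scale. The test assumes that the E9.5 pair, with no residual of its own, varies like the later pairs, and 0 genes passed without a trend in the variance, with the arrays scaled to a common trimmed mean or without the filter on dim genes.

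Among forebrain patterning, Notch target and neurogenic genes, the E9.5 difference was above the later one for Lhx8 (2.39), Dlx1 (1.80), Hes5 (1.20), Insm1 (1.54) and Bcl11a (1.42). For Dlx1 and Bcl11a the E9.5 signals were under 100 in both genotypes. Hes5 was also higher in the knockout at E10.5 (1.18), but not at E12.5 (-0.20). Progenitor, glial and neuronal genes above it were Nes (1.32), Fabp7 (0.94), Id4 (0.80), Nfia (1.89), Stmn3 (1.06) and Mapt (1.82); Nfia and Mapt had signals of 19.2 and 20.5 in the knockout, against 1.64 and 2.38 in wild type, near the background. The mesenchyme genes were Col1a2 (0.92), Col3a1 (0.76) and Lgals1 (0.98), with the growth factor gene Igf1 (1.31) beside them. Id4 and Lgals1 were also called lower in the E10.5 and E12.5 pairs, so later decreases enter their bracketed values. Other Id4 probe sets gave 0.15 and -0.13 at E9.5.

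Other genes above the later difference were Ces5a (2.45), Fbxw22 (1.61), Crym (1.26), Dchs1 (1.37), Mpped2 (1.52), Dct (1.91), Kcnk2 (1.86) and Rnasek (1.76). Dct, Kcnk2 and Rnasek were dim, with E9.5 signals of 46.0, 36.1 and 59.4 in the knockout, against 9.43, 7.37 and 17.3 in wild type. A second Mpped2 probe set gave -0.12 at E9.5, and a second Nes probe set -0.15. Ces5a had 157 in the knockout, against 53.0 in wild type at E9.5, and 30.6 against 144 at E10.5, so its value joins opposite differences at neighbouring ages. The genes below the later difference were Sall3 (-2.15), Slc2a4 (-1.97), Atxn7l2 (-1.95), Dbx1 (-1.43) and Lin28a (-1.30). Slc2a4 and Atxn7l2 were dim, with E9.5 signals of 20.4 and 20.02 in the knockout, against 83.6 and 62.7 in wild type, and a second Sall3 probe set was near equal (-0.03). Dbx1, a homeobox gene of the diencephalon and midbrain, had 157 in the knockout, against 165 in wild type at E9.5 and 519 against 131 at E12.5. Lin28a had 479 in the knockout, against 235 in wild type at E10.5.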

How the results depend on the processing

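No paired analysis was possible within an age because each group holds 1 array and the groups share a single replicate number; the later pairs were fitted with age as a block. Counts of genes moved with the settings. At least 2-fold higher at E9.5 were 15 genes, against 6 with a pseudocount of 32, 9 with the mean of a gene's probe sets, 36 with signal over 50, 3 over 200 and 560 with no minimum. At least 2-fold lower were 5, against 1 as deposited, 1 with a pseudocount of 32, 8 with the mean of probe sets, 29 over 50, 1 over 200 and 487 with no minimum. At 1.5-fold, 77 were higher, against 154 as deposited, 44 with a pseudocount of 32, 199 over 50, 26 over 200 and 1548 with no minimum, and 56 lower, against 31 as deposited, 31 with a pseudocount of 32, 142, 23 and 1438 under those 3 signal limits. For the later ages limma called 27 higher and 36 lower, against 0 and 1 without a trend, 1521 and 23 as deposited, 0 and 1 with a common trimmed mean and 0 and 1 with no filter. For E9.5 against later ages, 39 higher and 5 lower became 0 and 0 without a trend, 12 and 11 as deposited, 0 and 0 with a common trimmed mean, 0 and 0 with no filter, and 8 lower with a pseudocount of 1. Farsa, lower at -0.74, reversed to 0.030 with the mean of its probe sets. Of 157 list medians under these settings, 152 moved by little and 5 moved: with the mean of probe sets, the diencephalon and midbrain list (0.02) and the Wnt list (-0.20), and as deposited the Sonic hedgehog (0.10), S phase (0.09) and G2 and M phase (0.10) lists; of 330 values of 55 named genes, 182 stayed close, 147 moved and 1 reversed. The median of the ventral telencephalon list ran from 0.39 with the mean of probe sets to 0.68 as deposited; leaving out Lhx8, chosen after seeing the data, gave 0.50. With 1 array a side, neither the spread between embryos nor that between arrays can be read at E9.5.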
